A study of Mus musculus with 28 samples.

Results

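RNA from the duodenum of mice without a working vitamin D receptor (Vdr-/-, here KO) was compared with that of mice with the normal gene (Vdr+/+, here WT). The libraries were chosen by genotype and tissue as the sample titles give them, and matched to count columns by library code. They are 4 KO and 6 WT libraries, 10 of the 28 in the series, which also holds kidney libraries of the same genotypes and 4 libraries per tissue from VdrAF2 mice (AF2), whose receptor acts without coactivators. All mice were 8 weeks old and female, and all, WT mice included, ate the rescue diet TD.96348, which is high in calcium, phosphate and lactose and was meant to prevent low blood calcium and phosphate, in the KO mice at least. The file headers name the null allele after Demay. That line carries, as background knowledge, a deletion in the part of the gene that encodes the second zinc finger of the DNA-binding domain, and it lacks the receptor in every tissue. The study asks how loss of receptor signalling, and signalling without coactivators, affect mineral homeostasis. The comparison of KO with WT addresses the former.

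The vitamin D receptor is a nuclear receptor that binds the hormone 1,25-dihydroxyvitamin D, pairs with a retinoid X receptor and switches genes on at paired hexamer sites in DNA. In the duodenum it is known above all for raising the genes of active calcium uptake, in which calcium enters the enterocyte through the channel encoded by Trpv6, crosses the cell bound to calbindin-D9k (S100g) and leaves through the pump encoded by Atp2b1. When food supplies much calcium and lactose, calcium also crosses between cells by a passive route that does not need the hormone. The epithelium itself is renewed from crypts, where stem cells, dividing cells and antimicrobial Paneth cells lie, towards villi, where enterocytes carry the brush border that digests and absorbs food.

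The libraries were made with a QuantSeq kit, which counts tags at the 3' ends of transcripts, so levels are given as CPM, counts scaled to the size of each library, and compared within a gene and not between genes. KO and WT libraries held 3713352 to 25181916 counts, with WT 2 the deepest and the next at 6519522, and 13302 genes passed the filter on low counts. The labels do not say that each library came from a separate animal, so p-values measure the spread between these libraries, which may be technical. Duodenal enterocyte genes were abundant (2653 to 3997 CPM in WT for the disaccharidase Sis). The regional factors Gata4 and Pdx1 were present, at a median of 76.8 and 140.4 CPM in WT. The ileal gene Fabp6 and the kidney genes Umod and Slc12a3 had at most 4 reads over all WT libraries, while the ileal transporter gene Slc10a2 reached 5.34 CPM. These markers are those of duodenum, as labelled. In bulk tissue fewer cells of a type and less RNA per cell cannot be told apart.

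WT 4 stood apart within its group. Of the 13302 genes tested, low ones included, it was the highest or the lowest WT library for 46.3%. The other WT libraries stood at 14.5% to 38.9%. Over 4770 well-expressed genes its values correlated with KO libraries at a median r of 0.952 and with other WT libraries at 0.932. However, WT 1 (0.951 and 0.932) and WT 2 (0.931 and 0.913) showed the same order. Library codes fall into runs of consecutive numbers, in which WT 3, WT 4 and the 4 KO libraries form 1 run, and the other WT libraries share no run with KO. Results below are therefore given with all libraries and, for many but not all of them, without WT 4 or within that run. The change within the run sets KO against WT 3 and WT 4 alone. A result printed without these values may differ there.

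With all libraries, 3 of 13302 genes (0.0226%) passed an adjusted p of 0.05 in edgeR's quasi-likelihood test, all lower in KO. They were Vdr itself, Aldh4a1 and Psmb9. At an unadjusted p under 0.05, 1519 genes (11.4%) differed, 651 higher (4.89%) and 868 lower (6.53%) in KO. For 293 genes (2.2%) the values of the 4 KO and 6 WT libraries did not overlap, 154 of them higher (1.16%) and 139 lower (1.04%). DESeq2 called 110 genes (0.827%). Without WT 4 edgeR called 229 of 13156 genes (1.74%), 77 higher (0.585%) and 152 lower (1.16%). All 229 had the same direction with WT 4 in the fit, where 226 had an unadjusted p under 0.05, and 222 were also called by DESeq2 and 147 by limma-voom when those too left out WT 4. With all libraries DESeq2 called 87 of the 229, and 54 had groups that did not overlap. Where a pair of CPM values follows a gene, it is the WT mean and then the KO mean. WT 4 was singled out with its values known, in part because they lay close to KO, and leaving out such a library raises the number of calls by construction. Genes described below as called without WT 4 passed in that edgeR fit, which describes them and gives no independent support. Some of the 229 passed with all libraries too, by DESeq2 (the 87 above) or by edgeR with no filter on low counts (151).

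Vdr (chromosome 15, 97854425 to 97910630, minus strand), the targeted gene, was counted at 646, 537, 412, 267, 415 and 645 CPM in WT 1 to WT 6 and at 120.2, 114, 97.3 and 112 CPM in KO 1 to KO 4. Every KO library lay below every WT library, with WT 4 the lowest WT library. Its mean was 487 ± 149.6 CPM (SD) over 6 WT libraries and fell to 111 ± 9.72 CPM (SD) over 4 KO libraries, at a log2 fold change of -2.14 ± 0.20 (SE) (edgeR adjusted p 2.54e-05). Within the code run the change was -1.61 (adjusted p 4.29e-06). The kit counts 3' tags, which lie outside the exon known to be deleted in this line, so the tags left in KO do not report on a working receptor. Of the other 15 tested genes of the receptor's partners and of hormone metabolism, none passed. Rxra, which encodes the main dimer partner, measured 71.2 and 65.5 CPM, and the corepressor gene Ncor1 845 and 985 CPM (adjusted p 0.449). Cyp24a1, whose enzyme breaks the hormone down and which is a standard receptor target, had 0 counts in all 10 libraries, which allows up to 0.123 CPM over the pooled WT and 0.355 CPM over the pooled KO libraries by counting error alone.

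Aldh4a1 (chromosome 4, 139622866 to 139649690, plus strand) encodes the mitochondrial dehydrogenase that makes glutamate in the last step of proline breakdown. It measured 66.1, 56.1, 45.95, 25.98, 73.7 and 49.1 CPM in the WT libraries and 15.9, 24.3, 24.3 and 20.1 CPM in KO. All WT values lay above all KO values, though WT 4 came within a few CPM of the highest KO library. Its mean was 52.8 ± 16.8 CPM (SD) over 6 WT libraries and fell to 21.1 ± 4.05 CPM (SD) over 4 KO libraries, which gave a log2 fold change of -1.32 ± 0.22 (SE) (edgeR adjusted p 0.0284). Without WT 4 the change was -1.45 (adjusted p 6.18e-05), and within the code run -0.76 (adjusted p 0.865). Its neighbours in the same pathway gave other values. Prodh, the first enzyme of proline breakdown, measured 8.78 and 8.20 CPM (adjusted p 0.907) and Aldh18a1, which makes proline, 49.9 and 62.3 CPM (adjusted p 0.393). Over the 18 tested genes of proline, ornithine and citrulline metabolism 7 were higher and 11 lower, with a median log2 fold change of -0.06 against -0.00 over all genes tested. Got1, the cytosolic aspartate aminotransferase (240.4 and 153 CPM), and Arg2, the mitochondrial arginase (505 and 383 CPM), were called lower without WT 4.

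Psmb9 (chromosome 17, 34181987 to 34187764, minus strand) encodes an inducible catalytic subunit of the immunoproteasome, the form of the proteasome that cuts peptides for display on MHC class I. It was counted at 60.2, 43.3, 45.4, 39.2, 43.7 and 45.7 CPM in WT against 19.96, 28.9, 19.2 and 29.2 CPM in KO. WT 1 was high, the other WT libraries lay close together, and no KO library reached the WT range. Its mean was 46.3 ± 7.21 CPM (SD) over 6 WT libraries and fell to 24.3 ± 5.48 CPM (SD) over 4 KO libraries, which gave a log2 fold change of -0.93 ± 0.17 (SE) (edgeR adjusted p 0.0284). The change was -0.97 without WT 4 (adjusted p 0.00539) and -0.80 within the code run, where the call was lost (adjusted p 0.673). The calls of Aldh4a1 and Psmb9 rested on the whole set of libraries: each was lost when any of WT 1, WT 2, WT 3, WT 5, KO 1, KO 3, AF2 1 or AF2 3 was left out. Leaving out KO 4 ended the call of Aldh4a1 and leaving out AF2 2 that of Psmb9, and the highest adjusted p values were 0.184 and 0.252. Both calls were also lost when only the 10 WT and KO libraries were fitted (2 genes called, Vdr and Defa29), with limma-voom (2 genes, Vdr and Defa21; adjusted p 0.116 for Aldh4a1 and 0.0603 for Psmb9) and without robust estimation. Vdr passed in every one of these fits.

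The start regions of Aldh4a1 and Psmb9, the called genes other than the targeted one, are shown because the receptor acts on DNA. The windows run from 250 bases before to 50 bases after a RefSeq start on GRCm38.p6, the assembly behind mm10, 5' to 3' on the gene's strand. The pair of receptor half-sites searched was 2 direct repeats of a hexamer (A or G, then G, then G or T, then TCA) with 3 bases between them, on either strand, and 13 of 32851 windows (0.0396%) hold it. Neither of these windows does, which says only that these letters are not there. Psmb9 and Tap1, which encodes a subunit of the peptide transporter, start 226 bases apart on opposite strands, so 275 bases of the Psmb9 window belong to the Tap1 window too.
Aldh4a1 (chr4:139622644-139622943, plus strand): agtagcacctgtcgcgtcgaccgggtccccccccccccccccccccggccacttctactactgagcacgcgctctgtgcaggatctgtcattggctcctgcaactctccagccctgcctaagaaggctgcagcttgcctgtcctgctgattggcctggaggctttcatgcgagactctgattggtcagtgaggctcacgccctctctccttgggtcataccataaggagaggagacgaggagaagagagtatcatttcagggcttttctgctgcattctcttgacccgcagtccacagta
Psmb9 (chr17:34187281-34187580, minus strand): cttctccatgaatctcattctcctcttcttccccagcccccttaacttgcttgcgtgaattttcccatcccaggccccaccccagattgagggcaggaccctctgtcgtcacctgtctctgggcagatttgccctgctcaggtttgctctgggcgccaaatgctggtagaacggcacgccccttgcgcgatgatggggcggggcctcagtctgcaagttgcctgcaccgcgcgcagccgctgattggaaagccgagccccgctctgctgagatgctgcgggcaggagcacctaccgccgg
Although they share this stretch, Tap1 measured 43.5, 40.4, 38.8, 30.8, 51.6 and 49.4 CPM in WT against 29.7, 25.8, 34.99 and 36.5 CPM in KO, with overlap of the groups and a log2 fold change of -0.41 ± 0.16 (SE) (adjusted p 0.332). The gene models of Psmb9 and Tap1 overlap at their 5' ends, away from the 3' ends where the kit counts tags. The use of strand in counting is not known. A test of Psmb9 against Tap1 was not run.

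**Figure D1:**
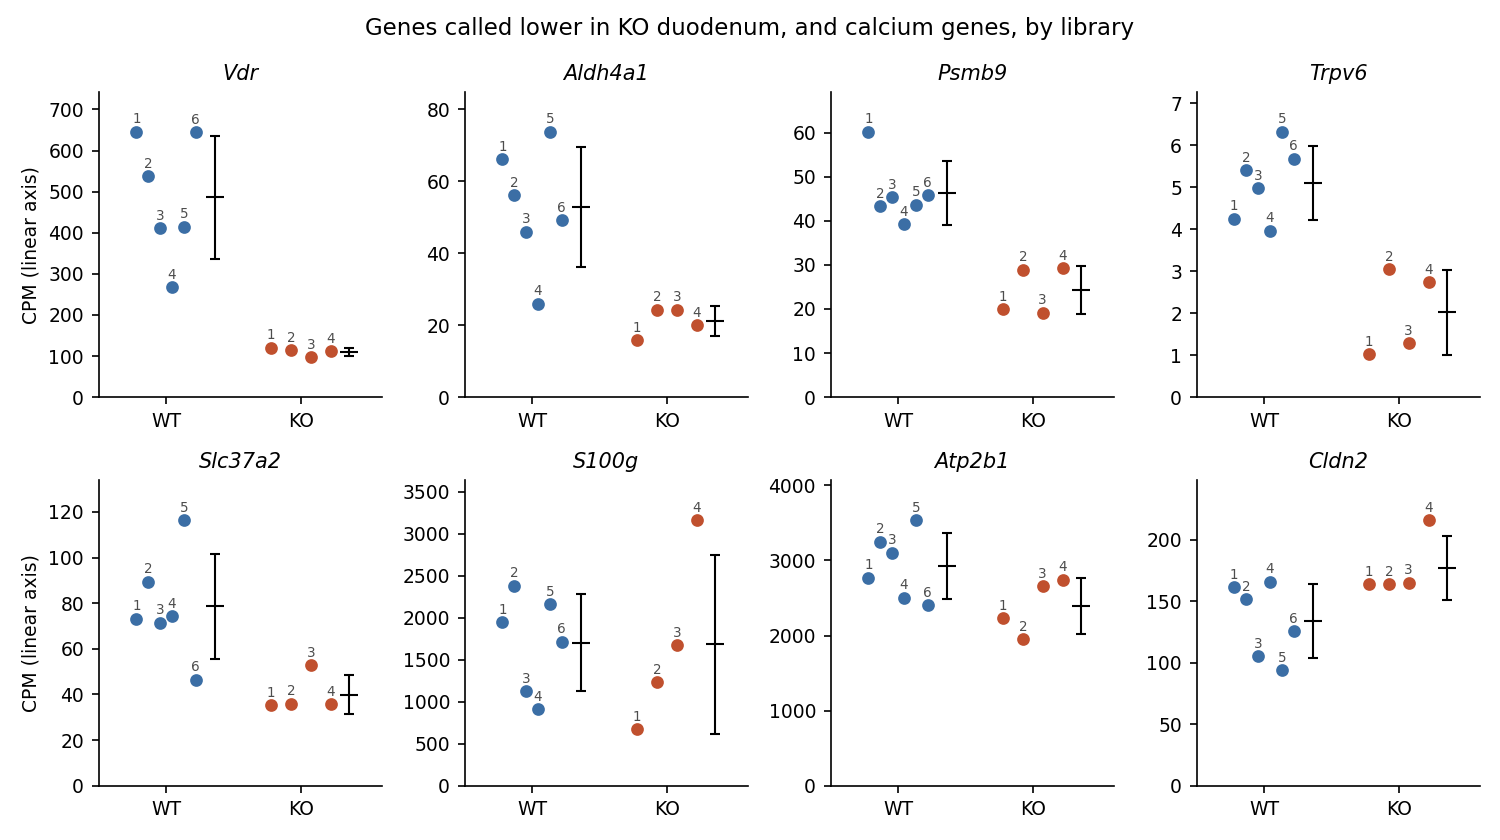
Normalised level in CPM (linear axis from 0) of 8 genes in each library of WT (blue, 6) and KO (orange, 4) duodenum, with the replicate number above each point and the mean with 1 SD beside it. Vdr, Aldh4a1, Psmb9 and Trpv6 do not overlap between the groups, while S100g spans 670.3 to 3161 CPM in KO alone.

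None of the 12 tested genes of calcium uptake passed on this diet, Trpv6, S100g and Atp2b1 included. Of the 12, 3 were higher and 9 lower, and the median log2 fold change was -0.04. Trpv6, the apical calcium channel, was the member without overlap. It measured 4.25, 5.40, 4.98, 3.96, 6.32 and 5.68 CPM in WT against 1.02, 3.04, 1.28 and 2.74 CPM in KO, from 127 reads over the 6 WT and 17 over the 4 KO libraries, a log2 fold change of -1.33 ± 0.52 (SE). Its adjusted p in edgeR was 0.324 with all libraries and 0.181 without WT 4. S100g, the gene of calbindin-D9k, measured 1944, 2381, 1122, 908, 2158 and 1717 CPM in WT against 670.3, 1236, 1671 and 3161 CPM in KO. Both the lowest and the highest of the 10 values were KO libraries, and the log2 fold change was -0.02 ± 0.44 (SE) with an adjusted p of 0.991. Against WT 3 and WT 4 alone, which were the lowest WT libraries for this gene, KO lay 0.73 higher on the log2 scale (adjusted p 0.960).

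The exit steps and the paracellular genes gave small differences. The pump gene Atp2b1 measured 2928 ± 442 CPM (SD, n = 6) in WT and 2397 ± 371 CPM (SD, n = 4) in KO, and the sodium-calcium exchanger gene Slc8a1 7.65 and 7.89 CPM. Cldn2, whose claudin forms a cation pore between cells, measured 93.7 to 166 CPM with a median of 139 CPM in WT and 164, 164, 165 and 216 CPM in KO. All KO libraries lay in the upper part of the WT range or above it, and the adjusted p was 0.296 with all libraries and 0.0834 without WT 4. Cldn15, a pore-forming claudin of the small intestine, measured 800.5 and 657 CPM (adjusted p 0.362), and Cldn12 35.7 and 34.6 CPM. Cldn2 and Cldn15 thus pointed in opposite directions with neither past the threshold.

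Among 14 tested genes known as intestinal receptor targets outside calcium transport, 12 were lower and 2 higher, 6 of the lower ones at an unadjusted p under 0.05 (6.53% of all genes), with a median of -0.30. Slc37a2, a sugar-phosphate exchanger gene, measured 73.3, 89.5, 71.4, 74.4, 116 and 46.4 CPM in WT against 35.3, 35.98, 52.9 and 35.6 CPM in KO. Only WT 6 and KO 3 overlapped. Its log2 fold change was -0.97 ± 0.22 (SE) at an adjusted p of 0.102, which became 0.0508 without WT 4. Sult2b1, which encodes a sterol sulfotransferase, measured 65.7, 69.03, 55.4, 34.3, 71.6 and 76.5 CPM in WT against 26.1, 40.03, 30.3 and 35.6 CPM in KO, a log2 fold change of -0.92 ± 0.18 (SE). WT 4 was the WT library within the KO range, and the adjusted p was 0.0605 with it and 0.00109 without it, while within the code run the change was -0.44. The efflux pump gene Abcc2 measured 315 and 223 CPM (adjusted p 0.212). Slc30a10, the manganese exporter, at 271 and 286 CPM, and the cytochrome Cyp3a11, at 155 and 127 CPM with 45.8 to 298 CPM in WT alone, did not pass either.

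For phosphate, the sodium-dependent transporter gene Slc34a2 had 0 reads in WT and 1 in KO, so the intestinal transporter best known for phosphate uptake was at the limit of detection. The housekeeping transporters Slc20a1 (154 and 95.6 CPM) and Slc20a2 (10.02 and 8.20 CPM) did not pass. Over 11 tested genes of phosphate transport and its scaffolds 10 were lower, with a median of -0.28. Slc9a3r1, the scaffold that anchors transporters to the brush border, measured 249 and 182 CPM and was called lower without WT 4 (adjusted p 0.0235).

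The genes of the absorbing surface lay lower in KO. For digestion at the brush border and sugar uptake all 20 tested genes had a negative log2 fold change, where 6703 of all 13302 genes did, with a median of -0.45. None passed with all libraries, 6 had an unadjusted p under 0.05 (6.53% of all genes did so in this direction), and 4 (Slc5a1, Sis, Mgam and Slc2a2) were called lower without WT 4 (1.16% of all genes), where the median was -0.55. Within the code run the median was -0.11. Slc5a1, the sodium-glucose cotransporter of the apical membrane, measured 3600.5, 3503, 3766, 2418, 4191 and 5245 CPM in WT against 2002, 2427, 1542 and 1618 CPM in KO. WT 4 and KO 2 met at the boundary, and the groups were otherwise apart. The log2 fold change was -0.997 ± 0.18 (SE), with an adjusted p of 0.0572 with all libraries and 0.00111 without WT 4, and -0.70 within the code run. Sis, the sucrase-isomaltase gene, measured 3997, 3420.0, 3979, 2653, 3651 and 3894 CPM in WT against 2797, 2466, 2527 and 2022 CPM in KO (log2 fold change -0.55 ± 0.13 (SE), adjusted p 0.0898). WT 4 again lay below KO 1 while the other WT libraries lay above all of KO. Mgam, which encodes maltase-glucoamylase, measured 5714 and 4130.3 CPM, and the basolateral glucose transporter gene Slc2a2 936 and 668 CPM. The summed level of the 20 genes was 14497 CPM in WT 4, 22295 to 27776 CPM in the other WT libraries and 15182 to 16535 CPM in KO.

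Other enterocyte functions were mostly lower too. Of 23 tested genes of lipid absorption and lipoprotein assembly 20 were lower (median -0.30, within the code run -0.12). Dgat2 of triglyceride synthesis measured 87.98, 98.4, 115, 62.5, 105 and 90.2 CPM in WT against 41.96, 48.1, 62.7 and 75.3 CPM in KO, at an adjusted p of 0.0824 and, without WT 4, 0.0103. Soat2, which esterifies cholesterol, measured 12.1 to 19.7 CPM in WT against 6.14 to 11.9 CPM in KO, with no overlap (adjusted p 0.185). Among 16 microvillus genes 14 were lower (median -0.32), with Ezr, the membrane-actin linker, at 929.7 and 649.6 CPM and called without WT 4. Within the code run that median was -0.05 and the change of Ezr -0.10. Amino acid transport had 11 of 14 genes lower (median -0.32), among them the cystine transporter gene Slc7a9 (153 and 109.6 CPM), also called without WT 4, but the run gave a median of -0.04 and -0.06 for Slc7a9. Bile acid sensing and transport had 6 of 7 lower (median -0.49, within the run -0.17), with Nr0b2, a repressor induced by bile acids, at 14.7 and 9.03 CPM. Nuclear subunits of oxidative phosphorylation had 28 of 33 lower, with a median of -0.13 with all libraries and 0.00600 within the run. Iron, zinc and manganese transport had 13 of 17 lower, but within the code run its median was 0.02. For the cholesterol synthesis list the median was -0.22 overall and 0.02 within the run. The part of crypt and villus cell numbers in these shifts was not tested.

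**Figure D2:**
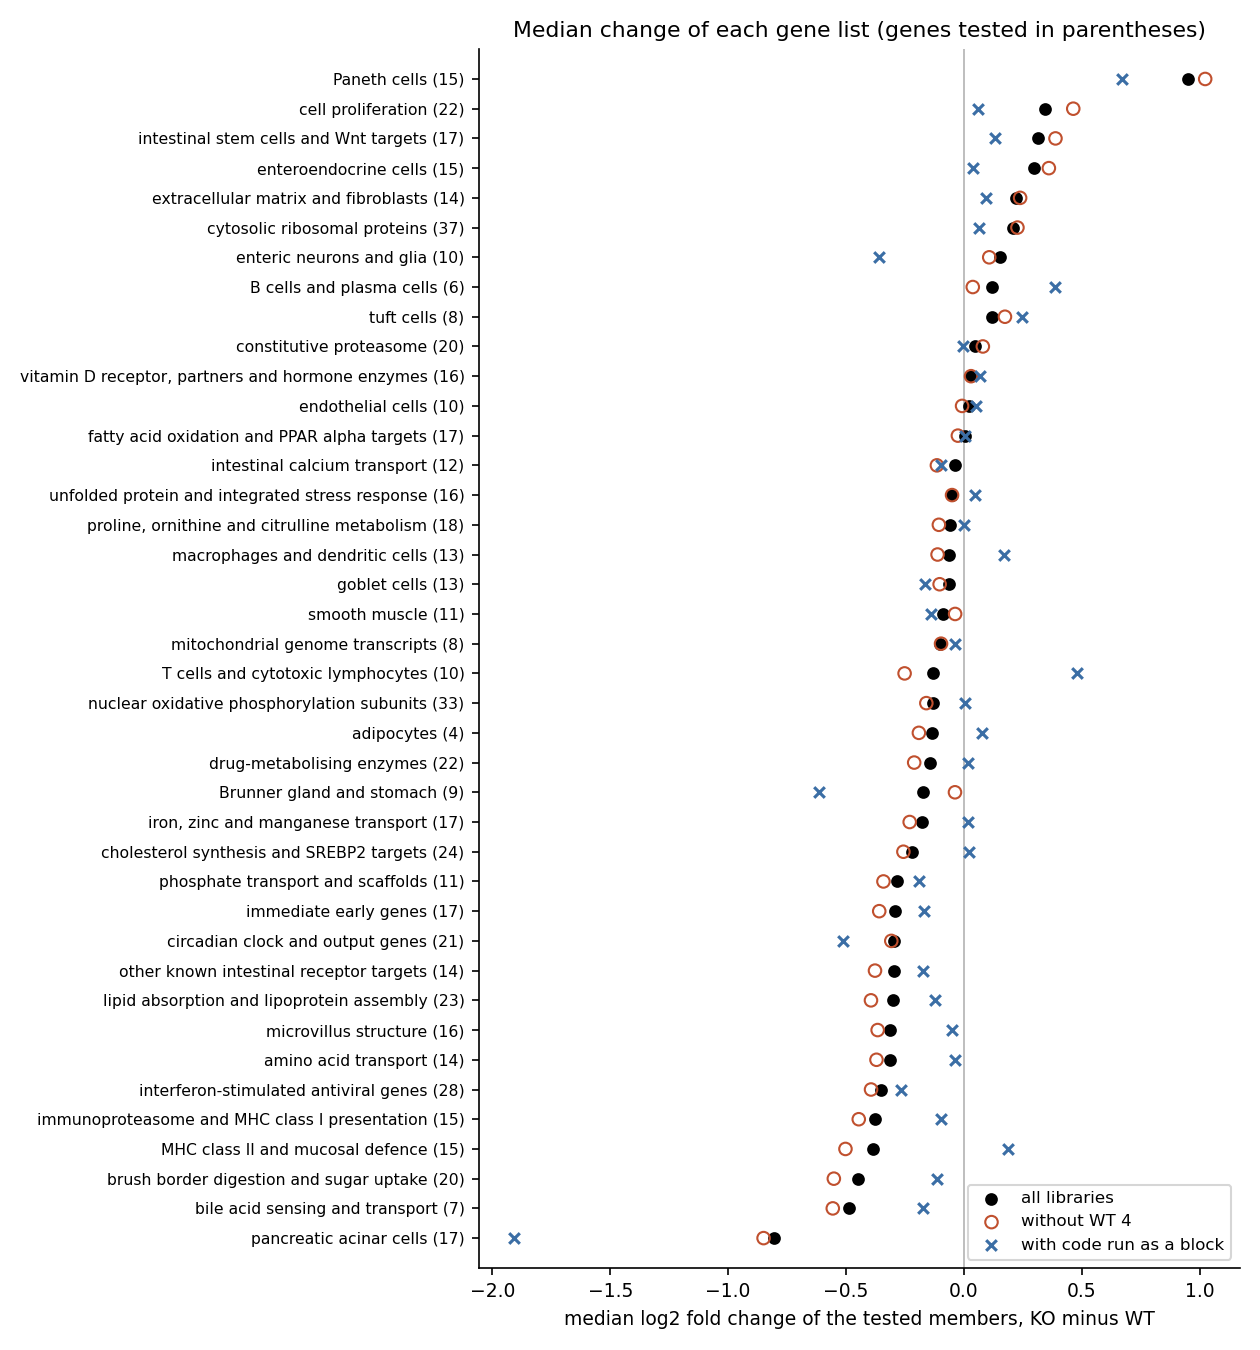
Median log2 fold change (KO minus WT) of the tested members of 40 gene lists, with all libraries (black), without WT 4 (open orange) and with the code run as a block (blue crosses). Paneth cell genes lie highest in each of the 3 fits, and the absorptive lists lie lower with all libraries than within the run.

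Genes of antigen display and of the interferon response were lower as well. Of 15 tested genes of the immunoproteasome and MHC class I presentation 14 were lower, with a median of -0.38, and 5 were called lower without WT 4 (Psmb9, Tapbp, B2m, H2-K1 and H2-D1), where 1.16% of all genes were. H2-K1, a classical class I heavy chain, measured 1335, 1437, 1407, 1174, 1749 and 1895 CPM in WT against 1141, 1216, 989 and 1079 CPM in KO, at an adjusted p of 0.175. KO 2 was the KO library above WT 4, and every other WT library lay above KO. B2m, the light chain, measured 2743 and 2033 CPM, and Tapbp, which loads peptides, 270.1 and 186 CPM. The other inducible subunits, Psmb8 (114 and 90.8 CPM) and Psmb10 (196 and 172 CPM), did not pass. Within the code run the list's median was -0.10, and Psmb8 lay 0.19 higher. The 20 genes of the constitutive proteasome had a median of 0.05, with 12 higher and 8 lower.

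Of 28 tested interferon-stimulated antiviral genes 27 were lower in KO, with a median of -0.35, of -0.39 without WT 4 and of -0.27 within the code run. Their summed level was 1402 to 2180.2 CPM in WT against 1181 to 1394 CPM in KO. By this sum, which a few abundant genes dominate, KO lay below WT. By the mean log2 level of the 28 genes WT 1 (-0.60 relative to the WT mean) was lower than every KO library (-0.55 to -0.34), so the groups overlapped. Gbp7, an interferon-induced GTPase gene, measured 33.7, 31.4, 29.9, 28.2, 31.6 and 25.4 CPM in WT against 17.9, 21.3, 15.8 and 18.3 CPM in KO (log2 fold change -0.72 ± 0.16 (SE), adjusted p 0.0824, or 0.0255 without WT 4). Oasl1, an oligoadenylate synthetase-like gene, measured 37.9, 58.4, 42.1, 46.2, 77.4 and 87.5 CPM in WT against 29.7, 31.4, 30.7 and 37.9 CPM in KO (adjusted p 0.147, without WT 4 0.0431). Neither gene overlapped between the groups, though for Oasl1 WT 1 and KO 4 were nearly equal. Ifit1, a binder of viral RNA, measured 310.2 and 142 CPM and Isg15, a ubiquitin-like modifier, 46.4 and 24.8 CPM, at adjusted p of 0.409 and 0.243.

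The interferon element GAAANNGAAA, searched on both strands, was in the start windows of 12 of the 19 interferon list genes that have one (63.2%), of 371 of 9839 tested genes (3.77%) and of 1131 of all 32851 windows (3.44%). The window of Gbp7 is printed as the list's member with the smallest p. Its capitals mark 1 such element, read on the opposite strand, and 2 matches of the GAS letters TTCNNNGAA, which 8.30% of all windows hold.
Gbp7 (chr3:142530086-142530385, plus strand): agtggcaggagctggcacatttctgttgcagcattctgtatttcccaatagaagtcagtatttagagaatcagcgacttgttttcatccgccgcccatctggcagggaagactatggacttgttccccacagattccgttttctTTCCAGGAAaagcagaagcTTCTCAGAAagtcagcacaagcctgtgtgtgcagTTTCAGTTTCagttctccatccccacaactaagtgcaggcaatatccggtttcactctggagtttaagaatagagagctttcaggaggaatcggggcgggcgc
The windows of Psmb9 and Tap1 hold neither set of letters, which says only that these letters are not there. Of the 13 class I list genes with a window, 3 hold the interferon element (B2m, Erap1 and Psme1, 23.1%). The GAS letters are in 2 of the 13 (Irf1 and Psmb8, 15.4%), beside 8.14% of tested genes. MHC class II and mucosal defence genes, which macrophages, dendritic cells and enterocytes express, had 12 of 15 lower with a median of -0.38, but of 0.19 within the code run. T cell and cytotoxic lymphocyte genes summed to 29.1 to 91.6 CPM in WT against 40.5 to 80.1 CPM in KO, and macrophage and dendritic cell genes to 179 to 317 and 169 to 236 CPM. By summed level WT 4 was the lowest of all 10 libraries in T cell genes. By their mean log2 level KO 1 (-1.02 relative to the WT mean) lay below WT 4 (-0.89). The part of T cell genes in the lower interferon and class I levels was not tested.

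**Figure D3:**
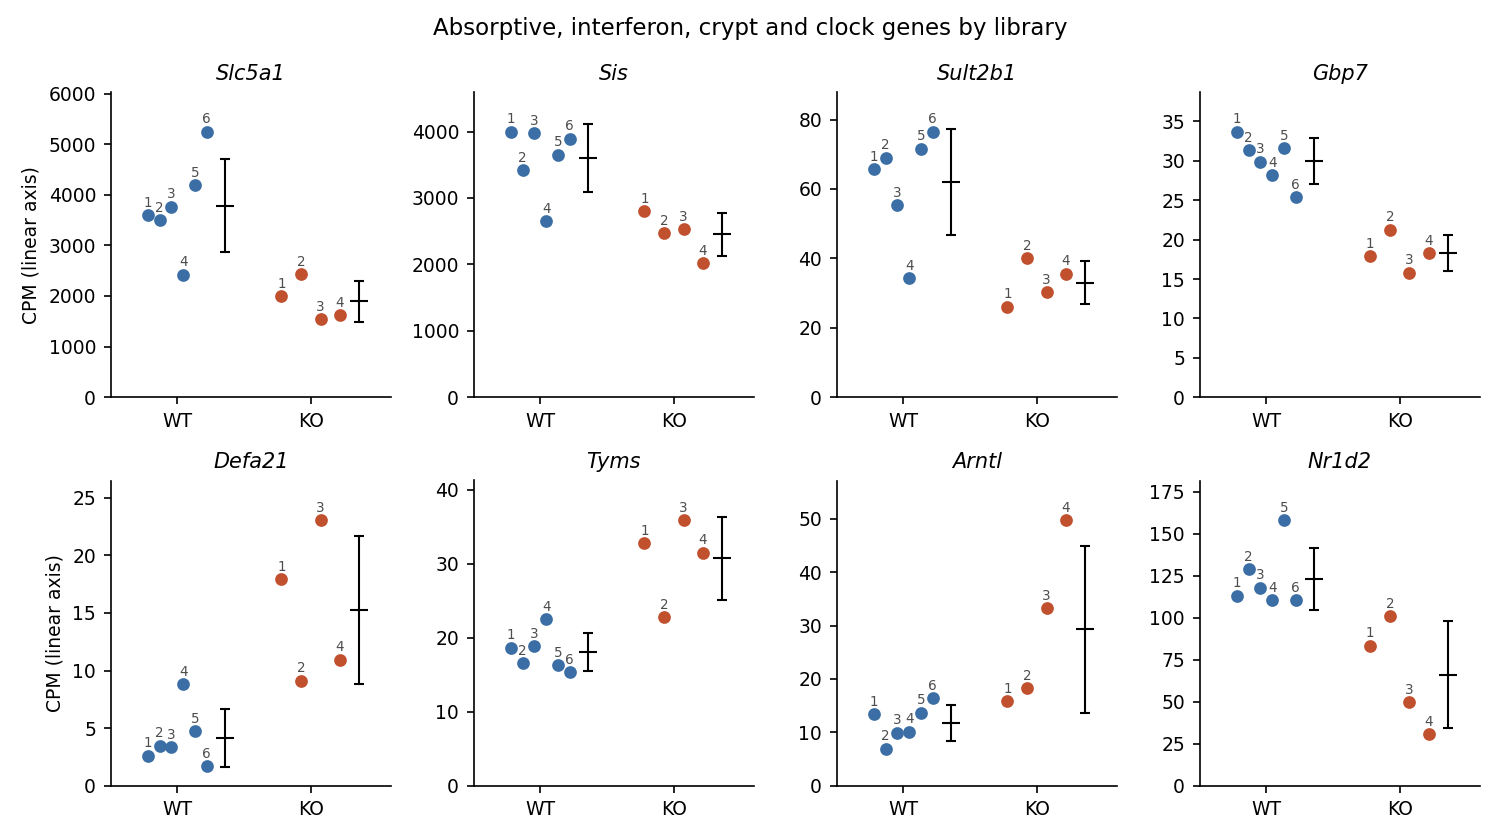
Normalised level in CPM (linear axis from 0) of 8 genes in each library of WT (blue, 6) and KO (orange, 4) duodenum, with replicate numbers and the mean with 1 SD. WT 4 lies nearest to KO among WT for Slc5a1, Sis, Sult2b1, Defa21 and Tyms, while Gbp7 and Nr1d2 do not overlap and Arntl is highest in KO 3 and KO 4.

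Crypt genes lay higher in KO. Paneth cell genes lay furthest from WT, with 14 of 15 higher, 12 of them at an unadjusted p under 0.05 where 4.89% of all genes were, and a median of 0.95. The median was 1.02 without WT 4 and 0.67 within the code run. Lyz1, the Paneth cell lysozyme, measured 422 CPM in WT against 817 CPM in KO, with no overlap (adjusted p 0.314). Defa21, an alpha-defensin, measured 2.62, 3.47, 3.32, 8.81, 4.74 and 1.67 CPM in WT against 17.9, 9.12, 23.04 and 10.95 CPM in KO (log2 fold change 1.93 ± 0.37 (SE), adjusted p 0.0572, or 0.00111 without WT 4). WT 4 was the WT library closest to KO. Defa22 measured 1.73 and 7.90 CPM and the more abundant Defa24 1105 and 2091 CPM, with similar ratios for Defa30 (729 and 1430.4 CPM) and Itln1, a lectin gene, (695 and 1338 CPM). Alpha-defensins are near-identical copies, so the split of reads among them is uncertain. Guca2b, which encodes uroguanylin and which enterocytes make as well, was the member that went the other way (471 and 332 CPM). The summed Paneth list was 2493 to 4599 CPM in WT against 4464 to 8742 CPM in KO, with KO 4 inside the WT range.

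Stem cell and Wnt target genes had 16 of 17 higher (median 0.32) and proliferation genes 21 of 22 (median 0.34). Ephb3, a receptor that sorts cells along the crypt, measured 10.1, 15.3, 9.97, 16.7, 8.42 and 8.68 CPM in WT against 18.4, 21.3, 18.8 and 32.9 CPM in KO, with no overlap (log2 fold change 0.97 ± 0.25 (SE), adjusted p 0.139). Tyms, thymidylate synthase of DNA synthesis, measured 18.6, 16.5, 18.8, 22.5, 16.3 and 15.4 CPM in WT against 32.7, 22.8, 35.8 and 31.5 CPM in KO, barely without overlap (adjusted p 0.147). Both were called higher without WT 4, at 0.0235 and 0.0316, as was Slc12a2, the chloride cotransporter of crypt cells (202 and 267 CPM). For Slc12a2, however, WT 4 was at 294 CPM, above every KO library (233 to 289 CPM), and the change within the code run was 0.10. WT 4 was the highest WT library in both lists, and KO 2 lay at or below the WT mean. Within the code run the medians were 0.13 for stem cell and 0.06 for proliferation genes. Enteroendocrine genes had 11 of 15 higher (median 0.30, 0.04 within the run), with Chgb, a granule protein, at 122 and 186 CPM. Goblet cell genes (5 higher, 8 lower, median -0.07) and tuft cell genes (5 higher, 3 lower) lay close to WT. Genes for cytosolic ribosomal proteins had 34 of 37 higher (median 0.21, within the run 0.06), and matrix and fibroblast genes 13 of 14 (median 0.22, within the run 0.10).

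**Figure D4:**
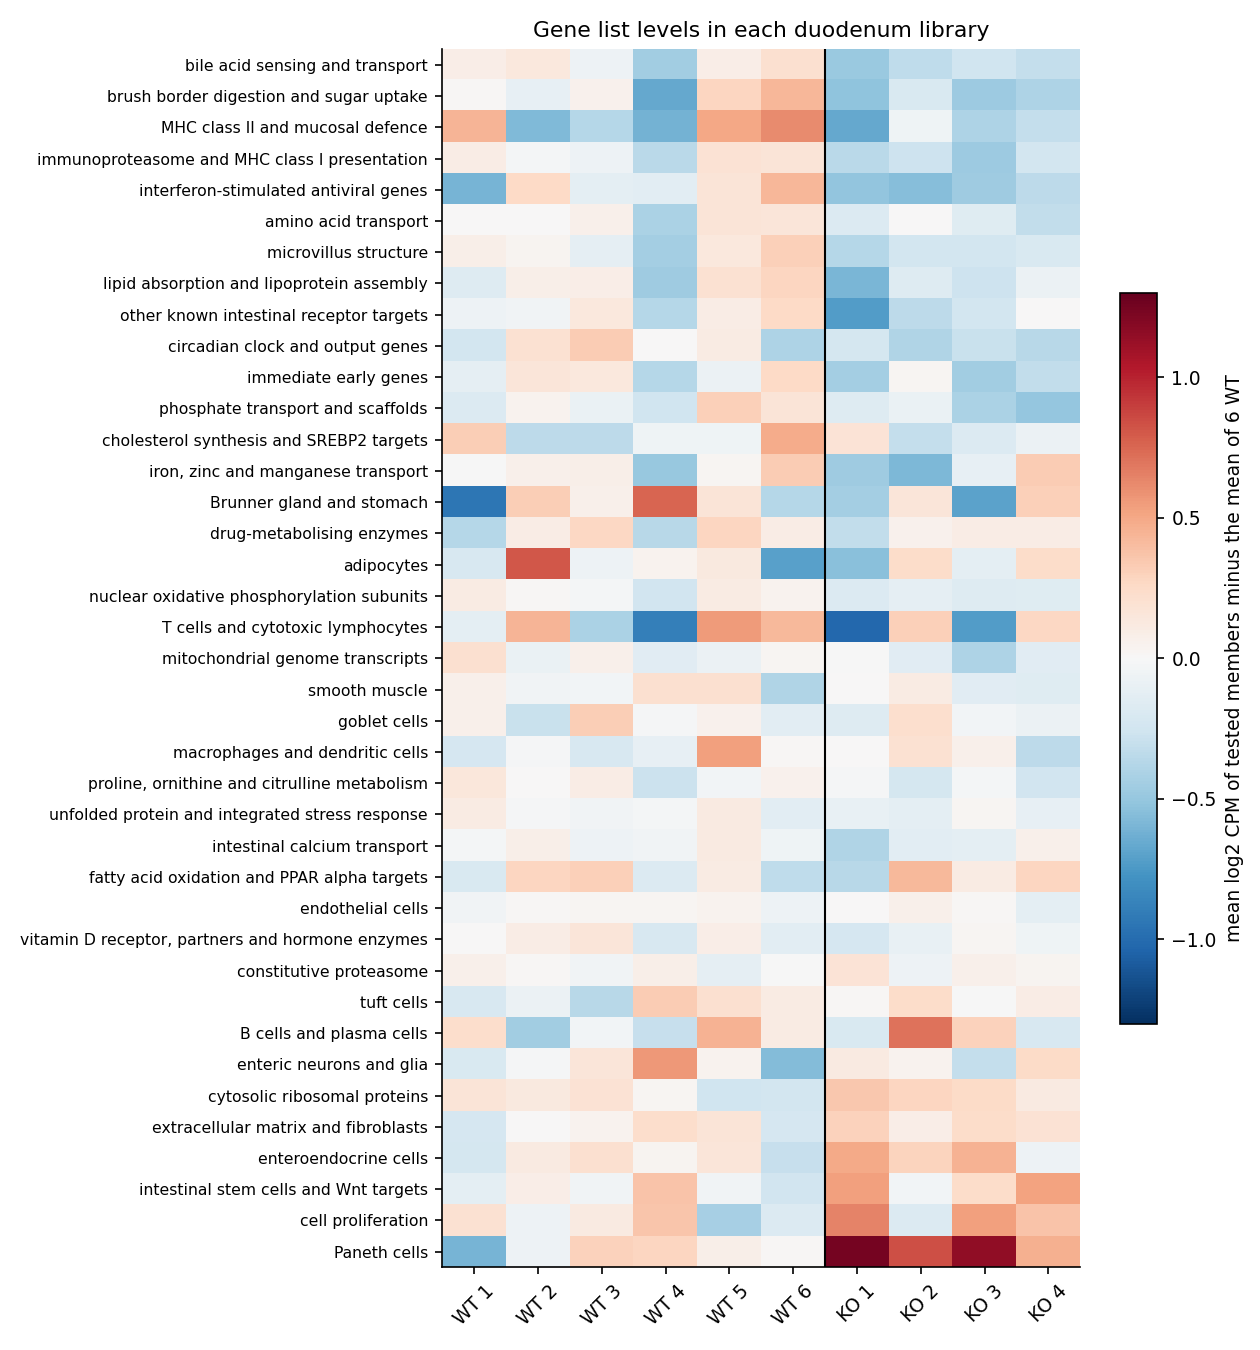
Mean log2 CPM of each gene list's tested members in each duodenum library, relative to the mean of the 6 WT libraries (colour scale, log2 units, blue lower and red higher), for 39 lists ordered by median change. WT 4 is lower than the other WT libraries in brush border genes (-0.67) and higher in stem cell genes (0.37), where KO 2 (-0.04) is the KO library that is not above the WT mean, and Paneth cell genes are highest in KO 1 (1.25).

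Of the genes of the circadian clock, the activator gene Arntl lay higher and several of its targets lower in KO. Arntl, which encodes BMAL1, measured 13.4, 6.94, 9.97, 10.1, 13.7 and 16.4 CPM in WT against 15.9, 18.2, 33.3 and 49.7 CPM in KO (log2 fold change 1.34 ± 0.28 (SE), adjusted p 0.0755, or 0.0305 without WT 4). Dbp, an output gene of the clock, measured 40.2, 76.7, 82.5, 55.9, 71.1 and 25.4 CPM in WT against 27.6, 18.8, 11.9 and 4.56 CPM in KO (log2 fold change -1.91 ± 0.46 (SE), adjusted p 0.175). KO 3 and KO 4 were the highest for Arntl and the lowest for Dbp. Nr1d2, a repressor of Arntl, measured 113, 129, 118, 111, 158 and 111 CPM in WT against 83.4, 101, 49.5 and 30.6 CPM in KO, with no overlap, again with KO 3 and KO 4 lowest. Of the 21 clock and output genes 14 were lower and 7 higher, with a median of -0.30, or of -0.51 within the code run. At an unadjusted p under 0.05 in edgeR 7 were lower (6.53% of all genes) and 2 higher (4.89%). None passed with all libraries in edgeR. DESeq2 called 3, where it called 0.827% of all genes: Arntl as higher, and Dbp and Nr1d2 as lower. The labels give no hour of tissue collection, and its part in these values was not tested.

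Immediate early genes, which respond to stimuli within minutes, had 15 of 17 lower (median -0.29), and Atf3, a stress-induced factor, (12.8 and 6.12 CPM) was called without WT 4. Genes of the unfolded protein response had a median of -0.05, with Dnajb9, a chaperone of the endoplasmic reticulum, at 53.3 and 34.2 CPM and also called lower without WT 4.

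Genes of pancreas and those of Brunner glands and stomach varied widely within both groups. Pancreatic acinar genes had a negative fitted log2 fold change in 17 of 17 (median -0.81), while their mean log2 CPM was 0.01 higher in KO. Their summed level ran from 103 to 26744 CPM within WT and from 259.9 to 15226 CPM within KO. Cpa1, a pancreatic carboxypeptidase, was at 185, 1.94, 2395, 855, 1402 and 3.01 CPM in WT against 12.3, 1139, 137 and 215 CPM in KO, and limma-voom gave the opposite direction. Genes of Brunner glands and stomach summed to 22299 to 50533 CPM in WT, with WT 4 the highest, and 20689 to 41914 CPM in KO. Smooth muscle genes had a median of -0.09 and endothelial genes of 0.02.

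The largest fold changes without overlap belonged, Vdr apart, to low genes. Among the lowest, beside Vdr, were Msln (40 reads over the 6 WT and 3 over the 4 KO libraries), Btbd8, Dgkb, Dnah2, Gchfr and Dcst1, at log2 fold changes of -2.21 to -1.33. Gchfr, the feedback regulator of tetrahydrobiopterin synthesis, was the most abundant after Vdr, at 10.1, 8.39, 7.20, 5.72, 7.90 and 17.4 CPM in WT against 3.58, 3.04, 3.84 and 2.28 CPM in KO (adjusted p 0.0702, without WT 4 0.0125). Dgkb was called without WT 4 as well. The 8 highest were Defa21, Naalad2, Cetn4, Ldlrad4, Cd163, Zfp2, Tmem201 and Rgs6, at log2 fold changes of 1.29 to 1.93. Cd163, a scavenger receptor of macrophages, measured 0.955 and 2.89 CPM, from 29 reads over the 6 WT and 25 over the 4 KO libraries. Beside Vdr, Dgkb, Gchfr, Defa21, Defa22 and Arntl, the ends of the calls without WT 4 held Syt5, Apol9b and Plekhm3 (lower) and Clspn, Efna4 and Defa40 (higher). Clspn, a replication checkpoint gene, measured 9.81, 7.58, 5.54, 12.8, 12.1 and 8.35 CPM in WT against 27.6, 10.6, 19.2 and 17.8 CPM in KO, at an adjusted p of 0.130 with all libraries.

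Genes next to the called ones were not called in the main edgeR fit. H2-K1, near Psmb9, was called lower by DESeq2 with all libraries (adjusted p 0.0497) and by edgeR without WT 4 (adjusted p 0.0233). Within 250 kb of Vdr 9 genes were tested, 5 higher and 4 lower, with Rpap3, a chaperone cofactor gene, at 8.73 and 4.51 CPM (adjusted p 0.217). Around Aldh4a1 there were 3, of which Iffo2 measured 8.73 and 13.9 CPM. Psmb9 lies in the MHC, where 16 of 24 neighbours were lower and 8 higher, with a median of -0.15. The median was -0.00 within the code run.

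The change from WT to KO was set against that in kidney, where 1 fit of all 28 libraries tested the difference of the changes. It called 8 of 14944 genes (0.0535%), and 1194 had an unadjusted p under 0.05. That fit had no block. With replicate number as a block, Slc37a2 and Tspan13 still passed, and Aldh4a1, S100g, Etv1, Etnk1, Pakap and Sulf2 did not. Aldh4a1 was among the 8. In kidney it measured 143 to 196 CPM in WT against 185 to 282 CPM in KO. Its log2 fold change there was 0.32 ± 0.18 (SE), beside -1.36 ± 0.21 (SE) in duodenum from the same fit (adjusted p of the difference 0.0123, edgeR). S100g, calbindin-D9k, showed the reverse contrast. Its kidney level was 510.1 to 1368 CPM in WT against 82.3 to 134 CPM in KO, so it was lower in every KO kidney library while the duodenal groups overlapped (difference 3.06 ± 0.54 (SE), adjusted p 0.0401).

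Etv1, an ETS-family transcription factor gene, gave the largest difference, 3.54 (adjusted p 0.0222), with 21.01 and 1.75 CPM in WT and KO kidney and 5.38 and 4.89 CPM in duodenum. Slc37a2 passed as lower in KO duodenum in this fit, at 77.8 and 38.6 CPM (adjusted p 0.0210, edgeR). Its kidney level was low, at 1.48 CPM in WT against 2.92 CPM in KO, and the difference between tissues had an adjusted p of 0.0401. The heparan sulfatase gene Sulf2, the phospholipid enzyme gene Etnk1 and Tspan13 also had a more negative change in duodenum, and Pakap a more positive one. The duodenal changes alone, in that fit, did not pass for S100g, Etv1, Sulf2, Etnk1, Tspan13 and Pakap. Vdr itself changed by -2.18 in duodenum and -3.54 in kidney (adjusted p of the difference 0.0704). Psmb9 was low in kidney, at 13.02 and 5.57 CPM. Kidney WT 1 was at 35.9 CPM, the other WT kidney libraries at 7.44 to 10.4 CPM and KO at 2.15 to 7.45 CPM. Its change did not pass as different between the tissues (0.951). In this fit its duodenal change of -0.96 did not pass either (adjusted p 0.287, edgeR). Trpv6 was at 0.989 CPM or less in every WT and KO kidney library. The same fit called 20 genes in duodenum and 80 in kidney. The number of tissue differences called rested on single libraries: it was 0 without kidney KO 3 and 23 without duodenum WT 4.

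**Figure D5:**
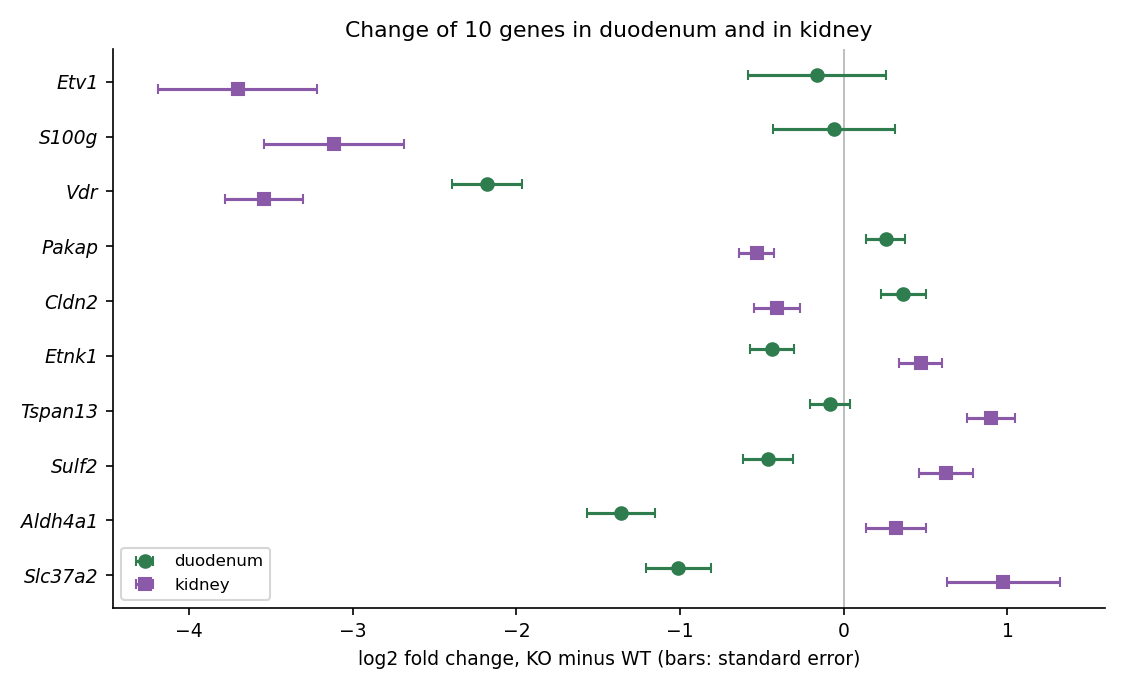
Log2 fold change from WT to KO with its standard error in duodenum (green circles) and kidney (purple squares) for the 8 genes with a called difference, Vdr and Cldn2, from 1 fit of 28 libraries. S100g and Etv1 lie near 0 in duodenum and below -3 in kidney, and Aldh4a1 and Slc37a2 have opposite signs in the tissues.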

How the data were processed

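The authors deposited 1 table of raw counts per gene symbol and library for each tissue, per the file headers, which also gave age, sex and diet. RNA was extracted with TRIzol and sequenced from QuantSeq libraries, per the labels' protocols. The build mm10 and limma 3.34.9 appear in the submitters' processing notes, with no role stated. For the aligner, the counting tool and the use of strand, details were not given in the sources used here, so genes that overlap or have near-identical copies are uncertain. Every deposited count was even (0 odd values), so read numbers here are the deposited counts divided by 2, while the tests ran on the counts themselves. No 2 libraries of 1 group agreed within sampling noise.

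The main test was edgeR 4.0.16 under R 4.3.3 on all 14 duodenum libraries, AF2 included, with filterByExpr by group, TMM scaling and robust quasi-likelihood F tests (two-sided, Benjamini-Hochberg over all genes tested, threshold 0.05). CPM are scaled by TMM, shown as mean ± SD. The SE was the size of the log2 fold change divided by the root of the F statistic. The tissue difference was an interaction over 28 libraries and genes in both tables. The alternatives were other scalings, filters, DESeq2 1.42.0, limma-voom (limma 3.58.1), blocks, halved counts and leaving out each library. Steps were tested on simulated data. Of 31179 duodenum symbols 30240 matched 1 gene of GENCODE vM21, the source of gene coordinates.

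Members, gene lists and rules were chosen with earlier results of these data known. The rule named Vdr, a mineral panel, all called genes, the 8 highest and 8 lowest fold changes without overlap at a p under 0.05 and an average log2 CPM of at least 1, the 2 members of each of 40 lists with the smallest p on the median's side, the 6 highest and 6 lowest calls without WT 4, up to 5 interaction genes each way and tested genes within 250 kb of a called gene. A result that this rule names is not reported here. Other list members, and those called without WT 4, were named after their values were seen. Replicate numbers did not pair WT with KO (r of -0.55 to -0.00 between same-numbered libraries).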

Additional observations from a re-analysis of the deposited data

Results flagged for a closer look

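Among the named genes, 300 groups of 4 or 6 libraries were searched for a library that stood apart from the others of its group by Dixon's criterion at 95%, and 22 of them, 7.33%, held one, where chance gives about 1 in 20. WT 4 was the library in 3 of the 22. High single libraries were Cldn2 at 216 CPM in KO 4, with the others at 164 to 165, Slc37a2 at 52.9 CPM in KO 3, with the others at 35.3 to 35.98 and Psmb9 at 60.2 CPM in WT 1, with the others at 39.2 to 45.7. Other high values were Zfp2 at 3.84 CPM in KO 3, with the others at 2.53 to 2.74, Cetn4 at 7.16 CPM in KO 1, with the others at 3.04 to 3.65 and Ncor1 at 1052 CPM in WT 6, with the others at 744 to 845. Also high were Psma1 at 116 CPM in KO 1, with the others at 107 to 108, Mylk at 948 CPM in WT 5, with the others at 611 to 679 and mt-Co1 at 1510.3 CPM in WT 6, with the others at 1088 to 1237. A high library was seen for Etnk1 at 853 CPM in WT 6, with the others at 659.6 to 708, Emc1 at 118 CPM in WT 4, with the others at 69.3 to 86.5 and Pfdn6 at 85.4 CPM in WT 1, with the others at 62.6 to 70.01. Further high values were Wdr46 at 10.47 CPM in WT 1, with the others at 5.26 to 7.05, Wdr46 at 11.8 CPM in KO 1, with the others at 8.61 to 8.96 and Rps18 at 166 CPM in KO 3, with the others at 124 to 130.0. High too were H2-Aa at 264 CPM in WT 5, with the others at 93.3 to 147 and BC051142 at 6.16 CPM in WT 4, with the others at 2.00 to 3.32. Low single libraries were Msln at 0 CPM in KO 2, with the others at 0.427 to 0.512, Slc7a9 at 84.4 CPM in KO 1, with the others at 116 to 120.0 and Atf3 at 5.28 CPM in WT 4, with the others at 12.4 to 16.4. Other low values were Iffo2 at 11.1 CPM in KO 2, with the others at 14.6 to 14.9 and B3galt4 at 2.11 CPM in WT 5, with the others at 4.76 to 5.28.

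The change from WT to KO differed between duodenum and kidney for 8 genes in the edgeR interaction test. On the log2 scale the duodenum change minus the kidney change was Aldh4a1 -1.68, Etnk1 -0.91, Etv1 3.54, Pakap 0.79, S100g 3.06, Slc37a2 -1.99, Sulf2 -1.09 and Tspan13 -0.98. The groups behind each value are given with the comparison of the tissues above.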

How the results depend on the processing

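The number of genes called lower or higher in KO duodenum, 3 in the main test, was 215 with no filter on low counts, 110 with DESeq2, 15 with limma-voom and quality weights, 8 with halved counts, 2 with only WT and KO libraries, 2 with limma-voom, and 1 both without robust estimation and with code runs as a block. Leaving out 1 library gave 1 to 229 genes, with 229 without WT 4, 13 without KO 2, 8 without WT 6 and 5 without AF2 4. Chosen after seeing the data, the fit without WT 2 and WT 4 called 139, DESeq2 without WT 4 called 561 and limma-voom without WT 4 called 175. The tissue difference, 8 genes in the main test, had 66 with DESeq2, 2 with limma-voom and 0 to 23 when 1 library was left out. The cause of these changes was not tested. Replicate numbers did not pair WT with KO, and with the replicate block 2 genes were called in duodenum (Vdr and Slc5a1, not Aldh4a1 or Psmb9). Between tissues, 9 of 14 duodenum libraries correlated best with the kidney library of their number (r of -0.11 to 0.12 over all 14). All 9 were WT or KO libraries, among which WT 5 was the exception, and no AF2 library did so. This is a hint from the data and not the design. The main tissue test had no block and so ignored any pairing by number. The replicate block there called 6 genes, of which Slc37a2 and Tspan13 were among the 8, while Aldh4a1, S100g, Etv1, Etnk1, Pakap and Sulf2 did not pass.

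Named genes that changed sign had mostly small fold changes. With upper quartile scaling the log2 fold changes were S100g 0.0343, Cldn12 0.00524, Emc1 0.0368 and Brd2 0.0442, and with the stricter filter Brd2 0.00301. Under the replicate block they were S100g 0.13, Cldn12 0.0385, Cyp3a11 0.33, Mylk 0.0113, C1qc 0.0375, Rapgef3 -0.13, Tmem106c -0.0137, Col11a2 -0.11, Brd2 0.0588, H2-Ab1 0.0552 and BC051142 -0.26. With code runs as a block they were S100g 0.73, Slc3a2 0.12, Sult1b1 0.0219, Sc5d 0.0106, Mylk 0.0389, Cidec 0.27, Rapgef3 -0.32, Tmem106c -0.11, H2-K2 0.0477, Col11a2 -0.75, Brd2 0.26, H2-DMb1 0.19, Psmb8 0.19, H2-Ab1 0.19, Btnl1 0.0069 and BC051142 -0.50. With limma-voom they were Amy2a5 0.84 and Cpa1 0.71, with quality weights Amy2a5 1.33, Cpa1 1.10, Slc48a1 -1.89e-05 and Emc1 0.00807, and without WT 4 Amy2a5 1.09, Cpa1 1.59 and Emc1 0.0775. Without WT 2 and WT 4 they were Etv1 0.22, Emc1 0.13, Brd2 0.0331 and H2-DMa -0.24, and by DESeq2 without WT 4 Etv1 0.0533, Emc1 0.11 and H2-DMa -0.0761. Leaving out 1 library at a time gave S100g -0.52 to 0.25, Slc8a1 -0.0325 to 0.19, Cldn12 -0.12 to 0.0399, Slc30a10 -0.13 to 0.20, Cyp3a11 -0.52 to 0.00913, Mylk -0.14 to 0.00778, Pparg -0.62 to 0.0434, Etv1 -0.48 to 0.18, Tspan13 -0.16 to 0.0455, Rapgef3 -0.13 to 0.22, Slc48a1 -0.00641 to 0.21, Tmem106c -0.0501 to 0.26, Emc1 -0.17 to 0.11, Rgl2 -0.17 to 0.0354, Rxrb -0.26 to 0.0247, Col11a2 -0.26 to 0.52, Brd2 -0.0747 to 0.0973, H2-DMa -0.0743 to 0.45, H2-DMb2 -0.38 to 0.39 and BC051142 -0.34 to 0.28. The cause was not tested. Precision is limited by 4 and 6 libraries and, for Trpv6 and other low genes, by their read numbers.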
